A study of Mus musculus with 6 samples.

Results

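The genes described here are the D-type cyclins and the regulators they work with at the G1 phase of the cell cycle. They are the cyclin genes Ccnd1, Ccnd2 and Ccnd3, the kinase genes Cdk4, Cdk6 and Cdk5, the kinase inhibitor genes Cdkn1a and Cdkn1b, the retinoblastoma gene Rb1, and Rgcc. They were picked by gene name, and 10 of 10 were found among 54532 genes of the table. The choice was made with the group difference already known, since Ccnd1 and Rgcc had stood among the genes with the smallest p on the higher side. The differences between groups below are therefore descriptions, and no test of them is offered.

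Cortical RNA of mice 12 months old was sequenced, with 3 libraries from wild-type animals (WT) and 3 that carry the label of a knockout of Fam69c, a gene for a kinase-like protein of the secretory pathway. The labels give the knockout genotype as Fam69c KO, and the design text writes it Fam69c-/-. Neither strain, sex, nor how the allele was made is stated, and whether the libraries stem from different mice is not said. The spread below is that between libraries and may be technical. Levels are FPKM, fragments scaled to gene length and to a factor per library. That factor was not the plain read total. The median ratio of each library to the geometric mean of all libraries, over genes, was already 1.0029 in every library. Between genes, levels compare only per base of the deposited gene length. For Ccnd3 that length was 8775 bases, against 2113 in its coding transcript, so an order of genes or a ratio between genes depends on it. From 30935326 to 35065884 reads per library lay behind the values. Fam69c itself read 1.89 ± 0.285 FPKM in WT against 1.597 ± 0.216 FPKM under the knockout label (SD, n = 3 each). Those groups overlapped, so its RNA does not check the labels, and directions below follow the labels alone. WT replicate 3 and replicate 1 labelled knockout stood apart from the others in genes of striatal projection neurons, whose marker list lay 1.07 and 0.56 log2 units below its mean over the libraries there (centred values -1.07 and -0.56, against 0.20 to 0.52 in the other libraries). The differences of Ccnd1, Ccnd2, Cdk4, Cdkn1a, Cdkn1b, Rb1 and Rgcc are also given without both of these libraries. Sums, shares and the levels of single genes are given with all 6 libraries.

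In dividing cells, mitogens and growth factors induce D-type cyclins, which bind and activate the kinases CDK4 and CDK6. These kinases phosphorylate the retinoblastoma protein RB, which then releases the E2F transcription factors that switch on genes for DNA replication. The inhibitors p21 and p27, encoded by Cdkn1a and Cdkn1b, bind cyclin-kinase complexes. In the adult cortex nearly all neurons have left the cell cycle for good, while precursors of oligodendrocytes, microglia and cells of the vessel wall keep the ability to divide, and CDK5 serves neurons outside the cell cycle.

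Over the 6 libraries Cdk5 had the highest level of the genes in FPKM, 37.3 ± 1.74, followed by Rgcc at 13.6 ± 1.68 FPKM and Cdk4 at 9.89 ± 0.592 FPKM (SD, n = 6). Next came Cdkn1b at 9.47 ± 0.259 FPKM, Ccnd1 at 7.83 ± 1.21 FPKM and Cdkn1a at 7.24 ± 0.930 FPKM. Ccnd2 at 5.33 ± 0.523 FPKM, Rb1 at 4.80 ± 0.293 FPKM, Ccnd3 at 2.47 ± 0.182 FPKM and Cdk6 at 0.285 ± 0.0644 FPKM closed the order. Neighbours whose ranges overlapped were Cdk4 with Cdkn1b, Cdkn1b with Ccnd1, Ccnd1 with Cdkn1a, and Ccnd2 with Rb1. The steps from Cdk5 to Rgcc, Rgcc to Cdk4, Cdkn1a to Ccnd2, Rb1 to Ccnd3 and Ccnd3 to Cdk6 held in 6 of 6 libraries without overlap. Cdk5 stood above 91.8% of the genes tested, Ccnd1 above 62.7% and Ccnd3 above 32.8%.

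Of the 10 genes, 4 were higher in every library labelled knockout than in every WT library: Ccnd1, Rgcc, Rb1 and Cdk6. The count was 0 on the lower side. In bulk RNA, fewer cells of a type and less RNA per cell cannot be told apart. Among all 15694 genes tested, 4.17% had groups that did not overlap on the higher side and 4.70% on the lower side. Cdk6 lay under the expression filter and is not among the genes tested, so on that basis the count is 3 of 9. Because the genes were chosen on this contrast, nothing is read from the difference between those shares. Over the whole table limma called 0 genes at a Benjamini-Hochberg adjusted p under 0.05, with 599 (3.82%) at an unadjusted p under 0.05 (1.63% of genes on the higher side and 2.19% on the lower), and voom on the recovered reads also called 0, with 533 (3.40%). The share called at the adjusted threshold was thus 0.00%, and 0 of these genes passed. At the unadjusted threshold 2 stood on the higher side, Ccnd1 and Rgcc, the values by which they were chosen, and 0 on the lower side. The 9 genes that passed the expression filter had a median log2 fold change of 0.04, against -0.0042 for all genes tested. Of the 9, 6 lay above 0 and 3 below, where 48.0% of all genes tested lay above 0, and nothing is read from that either.

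**Figure D1:**
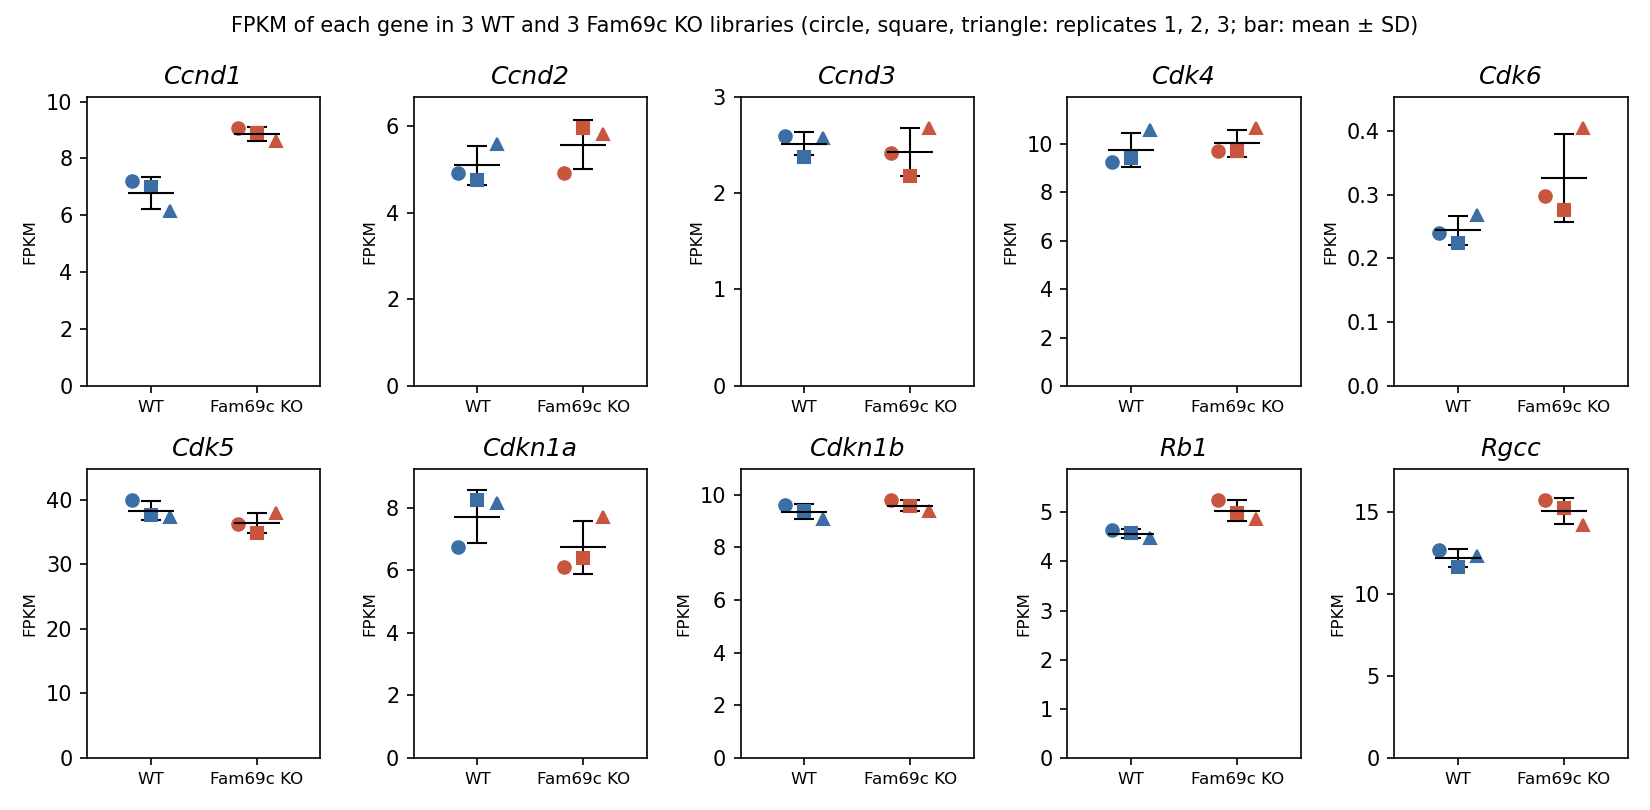
FPKM (vertical axes, from 0, a separate scale for each gene) of the 10 genes in the 3 WT (blue) and 3 Fam69c KO (red) libraries, with replicates 1, 2 and 3 as circle, square and triangle, and mean ± SD as bars. The groups lie apart for Ccnd1, Cdk6, Rb1 and Rgcc and overlap for the other genes.

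Ccnd1 encodes cyclin D1, the D-type cyclin best known as a target of growth factor and Wnt signalling (ENSMUSG00000070348, mm10 chromosome 7, 144929931 to 144939925, minus strand). It read 7.20, 7.002 and 6.14 FPKM in WT replicates 1, 2 and 3, and 9.09, 8.91 and 8.61 FPKM in replicates 1, 2 and 3 labelled knockout. The lowest library labelled knockout lay above the highest WT library, and the lowest value of all belonged to WT replicate 3. Means were 6.78 ± 0.563 and 8.87 ± 0.243 FPKM (SD, n = 3 each), a ratio of 1.31, and the log2 fold change on the FPKM + 0.5 scale was 0.37 with a standard error of 0.07. The values rested on 959 to 1452 reads per library, whose counting error alone would give a coefficient of variation of 2.86%, against 8.30% measured among WT and 2.74% among libraries labelled knockout. The difference ran from 0.30 without WT replicate 3 to 0.41 without WT replicate 1, and was 0.28 without both libraries low in striatal genes.

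The 3' end of Ccnd1 lies over the end of Oraov1, a gene on the other strand. Their deposited intervals share 1771 bases, and 1005 of 3691 stretches of 50 bases in the Ccnd1 transcript (27.2%) also occur in a transcript of that gene, read on either strand. The sources used here do not say that counting used strand, so reads there cannot be assigned to one of the pair. Oraov1 itself read 2.12 ± 0.167 FPKM in WT against 2.06 ± 0.139 FPKM under the knockout label, with overlapping groups and a log2 fold change of -0.03. Within 1 Mb of Ccnd1 on either side, 9 other genes were tested, with log2 fold changes from -0.08 to 0.10 and 0 with groups that did not overlap in either direction.

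Ccnd2 encodes cyclin D2, which in brain is known for its part in neural progenitors and adult neurogenesis (mm10 chromosome 6, 127125162 to 127152193, minus strand). Its level was 4.92, 4.75 and 5.59 FPKM in WT and 4.92, 5.96 and 5.81 FPKM in the libraries labelled knockout. Replicate 1 labelled knockout lay among the WT libraries, and the groups overlapped. The difference of 0.12 log2 units (standard error 0.09) became 0.26 without WT replicate 3 and replicate 1 labelled knockout, the libraries low in striatal genes, more than 1.5 times the value with all 6 libraries. It was 0.18 without WT replicate 3 alone, 0.20 without replicate 1 labelled knockout and 0.19 with sample weights. Leaving out WT replicate 2 gave 0.07, and leaving out replicate 2 labelled knockout also gave 0.07. A noncoding antisense gene at this locus, 9330179D12Rik, read 1.24 ± 0.146 and 1.20 ± 0.110 FPKM.

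Ccnd3 encodes cyclin D3, the member of the family known from lymphoid and muscle cells (mm10 chromosome 17, 47505051 to 47599691, plus strand). It gave 2.59, 2.37 and 2.57 FPKM in WT and 2.41, 2.18 and 2.68 FPKM in the libraries labelled knockout. Replicates 2 and 3 labelled knockout held the lowest and the highest value of all 6, so the groups overlapped fully. The difference of -0.04 (standard error 0.09) turned to 0.02 without replicate 2 labelled knockout and was -0.11 without replicate 3. It was -0.03 without WT replicate 1, -0.08 without WT replicate 2 and -0.08 with sample weights. Of its transcript, 21.7% of 50-base stretches also occur in another gene, mostly Bysl on the other strand, which read 8.07 ± 0.395 and 7.86 ± 0.348 FPKM.

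All D-type cyclins carry near their amino end the LxCxE motif through which they dock on RB. The first 60 coding bases of each are shown to place that shared element, from GENCODE M21 transcripts, 5' to 3', with the codons of the motif in capitals.
Ccnd1: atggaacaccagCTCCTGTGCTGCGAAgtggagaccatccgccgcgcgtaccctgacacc
Ccnd2: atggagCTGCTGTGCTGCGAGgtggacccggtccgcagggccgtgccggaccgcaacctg
Ccnd3: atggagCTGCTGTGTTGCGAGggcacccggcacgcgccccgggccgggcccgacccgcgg
The motif began at coding base 13 in Ccnd1 and at base 7 in Ccnd2 and Ccnd3. Outside it the sequences part quickly. Over the whole coding sequence Ccnd1 and Ccnd2 were identical at 72.5% of 843 aligned bases, Ccnd1 and Ccnd3 at 68.7% of 846, and Ccnd2 and Ccnd3 at 70.6% of 846. No stretch of 50 bases of one D-type cyclin transcript was found in another, apart from Ccnd3-ps, a pseudogene of Ccnd3.

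Summed over the D-type cyclins, the level was 14.7, 14.1 and 14.3 FPKM in WT and 16.4, 17.1 and 17.1 FPKM in the libraries labelled knockout. The sum in each library labelled knockout was above that in each WT library, with means of 14.4 ± 0.298 and 16.9 ± 0.379 FPKM (SD, n = 3 each). Ccnd1, chosen as higher under that label, is part of the sum, while the groups overlapped for Ccnd2 and for Ccnd3. The sum and the shares below therefore restate that choice in part, and nothing is read from their separation. Ccnd1 made up 48.9%, 49.6% and 42.9% of the sum in WT and 55.4%, 52.3% and 50.3% in the libraries labelled knockout. In FPKM, Ccnd1 was the largest share in every library. The gene lengths used were 4709, 9409 and 8775 bases for Ccnd1, Ccnd2 and Ccnd3. Their coding transcripts used here have 3740, 6330 and 2113 bases, so the shares and their order depend on the length. The share of Ccnd3 was 17.6%, 16.8% and 17.95% in WT against 14.7%, 12.8% and 15.7% in the libraries labelled knockout, without overlap, although the Ccnd3 level itself overlapped. Ccnd2 held 33.5% to 39.1% in WT and 29.95% to 34.98% in the libraries labelled knockout.

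**Figure D2:**
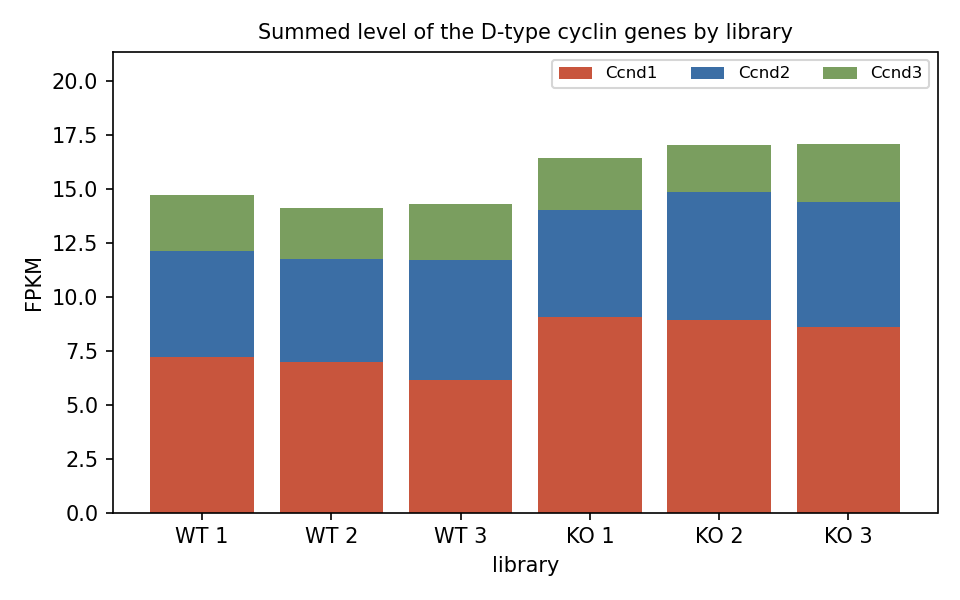
Stacked bars of the FPKM of Ccnd1 (red), Ccnd2 (blue) and Ccnd3 (green) in each library, where KO stands for the libraries labelled Fam69c KO. The 3 KO bars reach 16.4 to 17.1 FPKM and the 3 WT bars 14.1 to 14.7 FPKM, and the red part is the largest in all 6. Ccnd1 was chosen as higher in KO.

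Cdk4 encodes the main kinase partner of the D-type cyclins (mm10 chromosome 10, 127063534 to 127067920, plus strand). Its level was 9.25, 9.44 and 10.6 FPKM in WT and 9.70, 9.73 and 10.7 FPKM in the libraries labelled knockout. Replicate 3 was the highest of each group, and the groups overlapped. Means of 9.75 ± 0.708 and 10.04 ± 0.560 FPKM gave a log2 fold change of 0.04 (standard error 0.07), which was -0.00300 without replicate 3 labelled knockout and 0.10 without WT replicate 3. It was 0.12 without both libraries low in striatal genes, 0.0057 without WT replicate 1 and 0.02 without WT replicate 2. Leaving out replicate 1 or 2 labelled knockout, TPM scaling and sample weights each gave 0.06. Of the Cdk4 transcript, 29.5% of 50-base stretches also occur in another gene, all 592 of them in Tspan31 on the other strand, which read 14.1 ± 1.02 and 14.2 ± 1.19 FPKM.

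The Cdk4 promoter is shown for its E-boxes, the binding letters of MYC, since Myc was also measured. The letters searched were CACGTG, which read the same on both strands, and matches are in capitals (RefSeq, GRCm38.p6, chr10:127063285-127063533, plus strand).
Cdk4: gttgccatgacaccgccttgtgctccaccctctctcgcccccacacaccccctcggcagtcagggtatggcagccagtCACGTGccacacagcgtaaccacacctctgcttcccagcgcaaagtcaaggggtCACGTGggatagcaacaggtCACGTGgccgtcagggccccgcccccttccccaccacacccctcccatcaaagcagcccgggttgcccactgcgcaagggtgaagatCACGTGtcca
The bases printed stop at the edge of the deposited gene, short of the RefSeq start site from which positions are counted and before which 250 bases were searched. There were 4 matches, at bases -172, -118, -98 and -11 from that start site, while 6.02% of 32817 promoter windows of that length hold at least 1. Myc read 1.56 ± 0.219 FPKM in WT against 1.29 ± 0.163 FPKM under the knockout label, with overlapping groups and a log2 fold change of -0.20. A match of letters is a description and not a measured site.

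Cdk6 encodes the other kinase partner of the D-type cyclins (mm10 chromosome 5, 3341485 to 3531008, plus strand). It was covered by 96 to 203 reads per library over a model of 13989 bases. The level was 0.240, 0.224 and 0.267 FPKM in WT and 0.297, 0.277 and 0.405 FPKM in the libraries labelled knockout. All 3 libraries labelled knockout were above all 3 WT libraries, narrowly for replicate 2, and replicate 3 labelled knockout stood highest. Cdk6 lay under the expression filter of 0.5 FPKM and entered no fit, and the ratio of means was 1.34. Counting error alone would give a coefficient of variation of 8.67%, against 9.04% among WT and 21.2% among libraries labelled knockout. Per length, Cdk4 was 38.5 to 42.2 times as abundant as Cdk6 in WT and 26.4 to 35.2 times in the libraries labelled knockout.

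Cdk5 encodes a kinase that neuronal activators switch on in place of cyclins, with roles in migration and synapses (mm10 chromosome 5, 24418241 to 24423530, minus strand). It read 40.0, 37.6 and 37.3 FPKM in WT and 36.2, 34.8 and 37.9 FPKM in the libraries labelled knockout. Replicate 3 labelled knockout lay above WT replicates 2 and 3, so the groups overlapped, and the log2 fold change was -0.08 (standard error 0.05). It was -0.04 without WT replicate 1 and -0.05 without replicate 2 labelled knockout. Its activator p35 is encoded by Cdk5r1, at 95.7, 93.3 and 97.3 FPKM in WT and 90.7, 91.3 and 88.6 FPKM in the libraries labelled knockout. These groups did not overlap, with a log2 fold change of -0.08. Cdk5r2, for the activator p39, read 199 ± 12.9 and 186 ± 3.87 FPKM with overlap.

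Cdkn1a encodes p21, the inhibitor induced by p53 (mm10 chromosome 17, 29090976 to 29100727, plus strand). It read 6.75, 8.27 and 8.16 FPKM in WT and 6.13, 6.397 and 7.71 FPKM in the libraries labelled knockout. WT replicate 1 lay below replicate 3 labelled knockout, and the groups overlapped. Means of 7.73 ± 0.850 and 6.74 ± 0.846 FPKM gave the lowest log2 fold change of the 9 genes fitted, -0.18 with a standard error of 0.11. Without WT replicate 1 and without replicate 3 labelled knockout it was -0.27 and -0.28, and without both libraries low in striatal genes -0.08. Among WT libraries the coefficient of variation was 11%, and 12.5% among those labelled knockout, where counting error alone would give 3.43%.

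RefSeq lists 2 start sites of Cdkn1a, and the window before the upstream one is shown for its paired CATG cores, the arrangement of the p53 response element (GRCm38.p6, chr17:29090729-29090975, plus strand). The letters searched were CATG, any 6 bases, and CATG again, which read the same on both strands, and the match is in capitals.
Cdkn1a: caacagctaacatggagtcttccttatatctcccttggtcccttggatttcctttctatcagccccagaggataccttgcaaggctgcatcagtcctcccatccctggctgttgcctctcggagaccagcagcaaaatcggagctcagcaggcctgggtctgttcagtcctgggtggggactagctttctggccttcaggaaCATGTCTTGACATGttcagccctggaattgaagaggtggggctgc
The 247 bases printed again stop at the edge of the deposited gene, and the match began at base -48, counted from the RefSeq start site. Such a match was present in 0.488% of the 32817 windows, and the window before the other Cdkn1a start site had 0. Of p53 itself, its targets and the FOXO factors, 11 of 11 passed the filter and 0 passed the limma test in either direction. Mdm2, the p53 ubiquitin ligase and also its target, read 9.58 ± 0.565 and 8.97 ± 0.735 FPKM, and the DNA damage gene Gadd45a 3.61 ± 0.588 and 3.24 ± 0.557 FPKM. Foxo4, for a FOXO factor restrained by insulin signalling, read 6.03 ± 0.569 and 5.70 ± 0.436 FPKM.

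Cdkn1b encodes p27, the inhibitor known for holding cells in quiescence (mm10 chromosome 6, 134920401 to 134925513, plus strand). It gave 9.63, 9.38 and 9.06 FPKM in WT and 9.82, 9.56 and 9.39 FPKM in the libraries labelled knockout. The groups overlapped, and the gene varied least in proportion to its mean over the 6 libraries of those compared here, with 3.03% among WT and 2.25% among libraries labelled knockout against 2.65% from counting alone. Its log2 fold change of 0.03 (standard error 0.05) was -0.00450 without both libraries low in striatal genes, 0.01 without WT replicate 3 alone and 0.02 without replicate 1 labelled knockout. It was 0.05 without WT replicate 1, 0.06 with TPM scaling and 0.02 with sample weights. In each of the 6 libraries the FPKM of Cdkn1b was above that of Cdkn1a. The ratio was 1.11 to 1.43 in WT and 1.22 to 1.602 in the libraries labelled knockout. The gene length used for Cdkn1a was 3553 bases, against 2080 in its coding transcript, so this order depends on the length.

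Rb1 encodes RB, the substrate of the cyclin D kinases that restrains E2F (mm10 chromosome 14, 73183673 to 73325822, minus strand). Its level was 4.65, 4.58 and 4.48 FPKM in WT and 5.26, 4.99 and 4.86 FPKM in the libraries labelled knockout. The groups did not overlap, with means of 4.57 ± 0.0878 and 5.04 ± 0.205 FPKM. On the log2 scale the difference was 0.13 with a standard error of 0.06, from 845 to 1073 reads per library. It was 0.10 without replicate 1 labelled knockout and 0.09 without both libraries low in striatal genes, and 0.16 with TPM scaling of all libraries. Rcbtb2 overlaps the gene on the other strand and read 1.85 ± 0.0967 and 1.94 ± 0.115 FPKM.

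Rgcc encodes a regulator of the cell cycle that binds the mitotic kinase CDK1 and is known as a gene induced by complement and by growth factors (ENSMUSG00000022018, mm10 chromosome 14, 79288756 to 79301645, minus strand). It read 12.7, 11.6 and 12.3 FPKM in WT and 15.7, 15.3 and 14.2 FPKM in the libraries labelled knockout. The lowest library labelled knockout, replicate 3, was above the highest WT library, replicate 1. Means of 12.2 ± 0.551 and 15.1 ± 0.788 FPKM (SD, n = 3 each) gave a ratio of 1.24 and a log2 fold change of 0.29 (standard error 0.06). The gene has a short model of 918 bases, so its reads numbered 327 to 490, and counting error alone would give a coefficient of variation of 4.91% against 4.52% among WT and 5.23% among libraries labelled knockout. The difference ran from 0.26 without WT replicate 2 to 0.33 without replicate 3 labelled knockout, and was 0.27 without both libraries low in striatal genes. No stretch of 50 bases of its transcript occurred in another gene, and 0 deposited genes overlapped it.

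**Figure D3:**
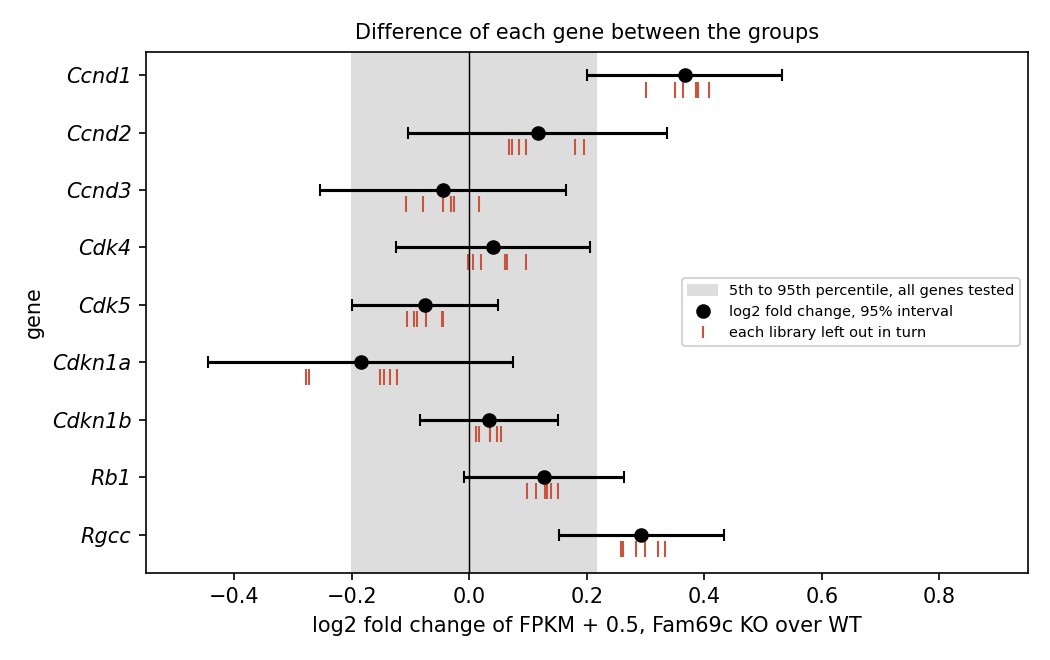
Log2 fold change of FPKM + 0.5 (horizontal axis), Fam69c KO over WT, of the 9 genes that passed the filter, as black points with 95% intervals, with the value after leaving out each library in turn as red ticks and the 5th to 95th percentile of all genes tested in grey. Ccnd1 at 0.37 and Rgcc at 0.29 lie outside the grey band, which runs from -0.20 to 0.22, and Cdkn1a at -0.18 is the lowest.

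The Rgcc promoter is shown because Rgcc had the next highest log2 fold change after Ccnd1, and the RefSeq table gave a window for 6 of the 10 genes, Ccnd1 not among them (GRCm38.p6, chr14:79301646-79301885, minus strand). Capitals mark the GC box GGGCGG, searched on both strands.
Rgcc: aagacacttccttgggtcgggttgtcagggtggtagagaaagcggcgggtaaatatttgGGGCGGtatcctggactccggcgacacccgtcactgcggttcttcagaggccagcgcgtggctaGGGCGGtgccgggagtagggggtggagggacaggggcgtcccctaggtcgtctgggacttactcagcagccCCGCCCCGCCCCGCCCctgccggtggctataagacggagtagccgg
The 240 bases printed stop at the edge of the deposited gene. The 250 bases before the RefSeq start site held 5 matches, at bases -191, -127, -56, -51 and -46 counted from that site, of which the last 3 overlap on the opposite strand. GGGCGG is common, with at least 1 match in 32.7% of the windows. The E2F letters TTTCCCGC and TTTGGCGC, the cyclic AMP element TGACGTCA and TATAAA, each searched on both strands, had 0 matches in that Rgcc window, where 0.893%, 0.417%, 1.55% and 12.4% of all windows hold them.

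Ccnd1 and Rgcc were both chosen as higher under the knockout label, so a likeness between them over all libraries restates that choice. Within WT their order differed, with Ccnd1 lowest in replicate 3 and Rgcc lowest in replicate 2. Centred on its mean over the 6 libraries, log2(FPKM + 0.5) of the pair differed by a root mean square of 0.0870. Of 7822 other genes averaging 5 FPKM or more, the nearest to Ccnd1 was Cmtm5, which encodes a membrane protein of the MARVEL family, at 0.0487, and then Ephx2, for soluble epoxide hydrolase, at 0.0811 and Grm3, for a metabotropic glutamate receptor, at 0.0820. Nearest to Rgcc were Cxcl12, a chemokine gene, at 0.0529, Plpp3, for a lipid phosphate phosphatase, at 0.0586 and Tram1, for a protein of the translocation channel, at 0.0594. Cmtm5 read 23.1, 21.6 and 18.4 FPKM in WT and 27.7, 25.5 and 25.4 FPKM in the libraries labelled knockout. As with Ccnd1, the lowest value of Cmtm5 belonged to WT replicate 3 and its highest to replicate 1 labelled knockout, which restates the search that found it. Cxcl12 read 7.71, 7.61 and 7.68 FPKM in WT and 9.81, 8.91 and 9.14 FPKM in the libraries labelled knockout. The likeness is a description over 6 libraries, and members and neighbours share those libraries. The neighbours were found by likeness to a gene chosen as higher, so nothing is read from their own higher values under the knockout label.

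The wider G1/S list held 88 other genes, picked by textbook role with earlier results of these data known, of which 87 were in the table and 68 passed the filter. Of the 68, 0 passed in limma in either direction. At an unadjusted p under 0.05 there were 0 higher and 4 lower, 5.88% against 3.82% of all genes tested, and voom gave 5. The 4 were Cdkn2d, Usp2, Egr1 and Gli1. Groups did not overlap for 5 of the 68 on the higher side and 5 on the lower side, 14.7% against 8.87% of all genes tested. The list's median log2 fold change was -0.00680, with 33 above 0 and 35 below.

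Among the other kinase inhibitors, Cdkn2d, which encodes the INK4 protein p19 that blocks CDK4 and CDK6, was by far the most abundant. It read 32.5, 30.9 and 29.6 FPKM in WT and 27.9, 27.1 and 26.6 FPKM in the libraries labelled knockout, without overlap, a log2 fold change of -0.18 (standard error 0.05, limma adjusted p = 0.999). Cdkn1c, for the KIP protein p57, read 3.08 ± 0.245 and 2.81 ± 0.365 FPKM, and Cdkn2c, for the INK4 protein p18, 1.17 ± 0.159 and 1.13 ± 0.165 FPKM. Cdkn2a and Cdkn2b, the inhibitor genes of senescence, lay under the filter.

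Genes that control the turnover of D-type cyclins and of p27 included Usp2, for an enzyme that removes ubiquitin from cyclin D1. It read 15.4, 15.7 and 16.7 FPKM in WT and 14.5, 13.3 and 13.1 FPKM in the libraries labelled knockout, again without overlap, a log2 fold change of -0.22 (standard error 0.06, limma adjusted p = 0.999). Fbxo31, for a ubiquitin ligase subunit that directs cyclin D1 to the proteasome, read 34.0 ± 1.31 and 31.1 ± 2.33 FPKM. Cks1b, a cofactor in the destruction of p27, read 1.09 ± 0.155 and 1.36 ± 0.271 FPKM. All 10 genes of this group passed the filter, 5 above 0 and 5 below.

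Inducers of cyclin D1 had a median log2 fold change of -0.11 over the 11 of 13 genes that passed the filter, 4 above 0 and 7 below. Egr1, an immediate early transcription factor gene, read 108 ± 19.9 and 82.7 ± 10.6 FPKM, with overlapping groups and its highest value, 129 FPKM, in WT replicate 3. Gli1, a target and effector of Hedgehog signalling, read 0.848 ± 0.149 and 0.565 ± 0.0996 FPKM without overlap. Jun, for a subunit of the AP-1 transcription factor, read 18.1, 17.9 and 17.5 FPKM in WT and 19.8, 18.3 and 18.2 FPKM in the libraries labelled knockout, higher without overlap. The AP-1 genes Fos and Junb went the other way, with overlap and log2 fold changes of -0.41 and -0.35. Fos read 20.2 ± 7.57 and 14.5 ± 1.88 FPKM, and Junb 45.65 ± 16.7 and 34.5 ± 4.18 FPKM. Both had their highest value in WT replicate 3, 28.7 and 64.9 FPKM. In the inducer list 2 genes of 11 had an unadjusted p under 0.05 in limma, both lower, against 2.19% of all genes tested, and 0 passed after adjustment.

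Downstream of the D-type cyclins, cyclin E and CDK2 carry cells into S phase. Ccne1 read 7.14 ± 0.672 FPKM in WT against 6.52 ± 0.437 FPKM under the knockout label, Ccne2 1.57 ± 0.156 and 1.74 ± 0.116 FPKM, and the phosphatase gene Cdc25a 0.938 ± 0.0764 and 0.948 ± 0.0477 FPKM. All 3 had overlapping groups, and Ccna1, Ccna2 and Cdk2 lay under the filter. Among the RB relatives and E2F factors 12 of 16 passed the filter, with log2 fold changes from -0.08 to 0.11. Lin54, of the DREAM complex that represses cell cycle genes in quiescence, read 2.30 ± 0.0472 and 2.53 ± 0.163 FPKM without overlap. The E2F partner genes Tfdp2 and Tfdp1 read 3.02 ± 0.0916 and 2.82 ± 0.101 FPKM, without overlap, and 12.9 ± 0.516 and 13.4 ± 0.456 FPKM, with overlap.

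The CDK-activating kinase, which phosphorylates CDK4 and CDK6, has 3 subunits. Its kinase gene Cdk7 read 3.92 ± 0.282 and 4.34 ± 0.105 FPKM without overlap, Mnat1 2.08 ± 0.451 and 2.29 ± 0.293 FPKM, and Ccnh 13.0 ± 0.364 and 13.2 ± 0.871 FPKM. All 3 log2 fold changes were above 0, from 0.03 to 0.13. Of the remaining activator list of CDK5, Cables2, for a protein that links kinases to one another, read 8.78 ± 0.773 and 9.41 ± 0.167 FPKM with overlap.

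Genes of replication and mitosis other than Pcna were low, at most 3.12 FPKM in any library. Pcna, for the sliding clamp of replication, read 15.8 ± 1.09 FPKM in WT against 15.65 ± 1.29 FPKM under the knockout label, with overlap. Of the list, 10 of 18 passed the filter, 6 above 0 and 4 below. Mki67, the standard mark of dividing cells, read 0.0636 to 0.102 FPKM in WT against 0.0645 to 0.101 FPKM under the knockout label. Mcm2, of the replicative helicase, read 0.785 ± 0.0598 and 0.982 ± 0.0381 FPKM without overlap, while Mcm5 read 1.98 ± 0.145 and 2.21 ± 0.0830 FPKM and Mcm6 1.49 ± 0.193 and 1.66 ± 0.188 FPKM with overlap.

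**Figure D4:**
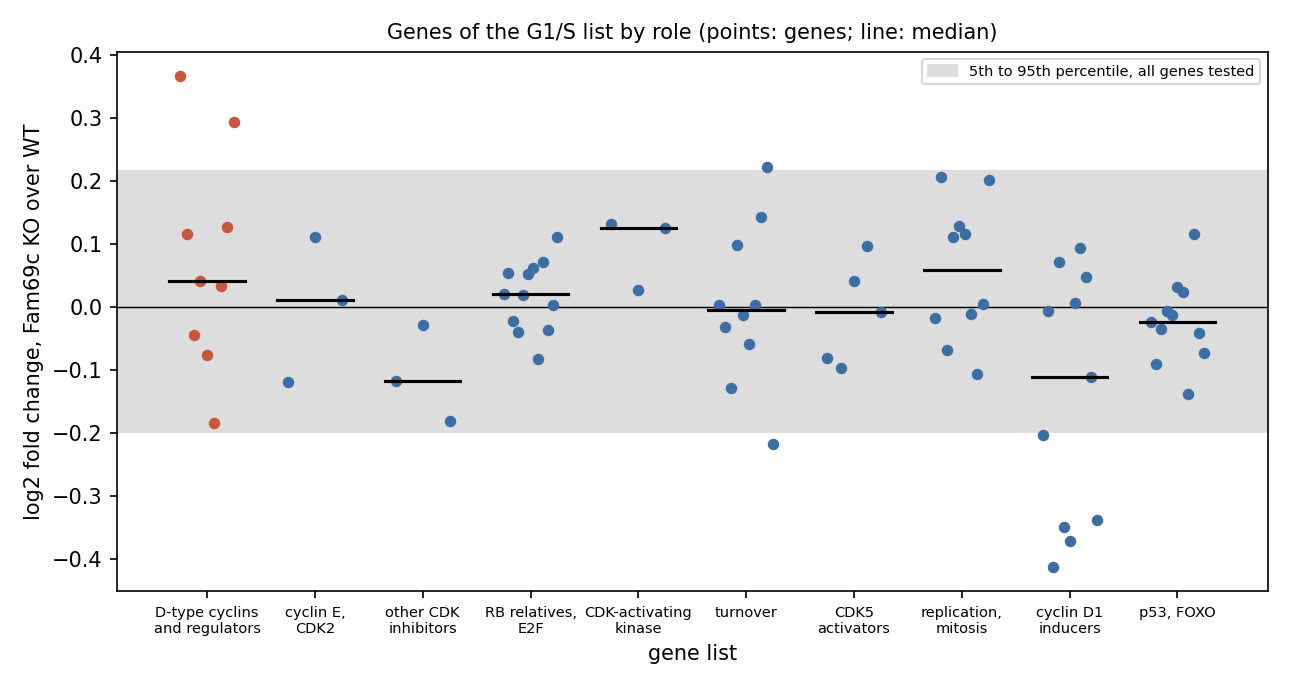
Log2 fold change of FPKM + 0.5 (vertical axis), Fam69c KO over WT, of each gene that passed the filter, by role (horizontal axis), with the genes described first in red, the wider G1/S list in blue, medians as lines and the 5th to 95th percentile of all genes tested in grey. Medians of the blue lists run from -0.12 to 0.13, and most points lie in the grey band.

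Cell type markers were read beside these values. Neuronal, astrocyte and oligodendrocyte genes were abundant, and each list was detected in all 6 libraries, with 305 ± 5.43 FPKM of Slc17a7 in WT. Endothelial markers had a higher mean in the libraries labelled knockout for 5 of 7 genes, with 1 of 7 without overlap, and their sum ran from 55.9 to 64.3 FPKM in WT against 56.9 to 65.0 FPKM under the knockout label. Oligodendrocyte precursor markers were higher for 1 of 6 and summed to 19.0 to 22.7 and 19.3 to 21.2 FPKM, and microglia markers were higher for 1 of 6 and summed to 65.7 to 77.7 and 66.2 to 73.2 FPKM. The precursor marker Lhfpl3 was lower without overlap, at 4.06 to 4.41 against 3.85 to 4.03 FPKM. Of 4 excitatory neuron markers, Neurod6 was higher without overlap, at 31.1 to 33.5 against 34.1 to 36.3 FPKM. Among all genes tested, 4.17% were higher without overlap and 4.70% lower. Astrocyte markers were higher for 2 of 5, both without overlap, and summed to 112 to 122 and 110 to 119 FPKM. These were Aldh1l1, at 11.3 to 12.8 against 13.04 to 15.1 FPKM, and Gja1, at 11.3 to 11.4 against 11.7 to 12.6 FPKM, while Gfap read 34.7 to 38.6 against 29.4 to 35.1 FPKM with overlap. The part of astrocyte genes in the levels of Ccnd1 and Rgcc was not tested. Of 5 meningeal markers, Lum was higher without overlap and Col1a1 and Col1a2 were lower without overlap, and the sum ran from 5.71 to 6.27 FPKM in WT against 5.08 to 5.80 FPKM under the knockout label.

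The choroid plexus list differed between the groups in its sum, without overlap, 2.76 to 3.76 FPKM in WT against 3.95 to 9.55 FPKM under the knockout label. Most of that sum was Ttr, the transthyretin gene, higher without overlap at 2.10 to 3.10 and 3.50 to 8.91 FPKM, while 1 of 4 markers had a higher mean and Kl, Folr1 and Kcne2 stayed under 0.5 FPKM in every library. The part of Ttr in the levels of Ccnd1 and Rgcc was not tested. Markers of neuroblasts and progenitors, the cells in which Ccnd2 is best known, were higher for 4 of 6 and summed to 5.36 to 6.21 FPKM in WT against 5.68 to 6.10 FPKM under the knockout label. Of these 4, Eomes and Top2a lay under the filter, with 0 to 4 and 10 to 31 reads per library. Dcx and Nes, which passed it, had log2 fold changes of 0.08 and 0.02. The striatal sum ran from 92.7 to 271 FPKM in WT against 130 to 253 FPKM under the knockout label, so it overlapped between the groups.

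**Figure D5:**
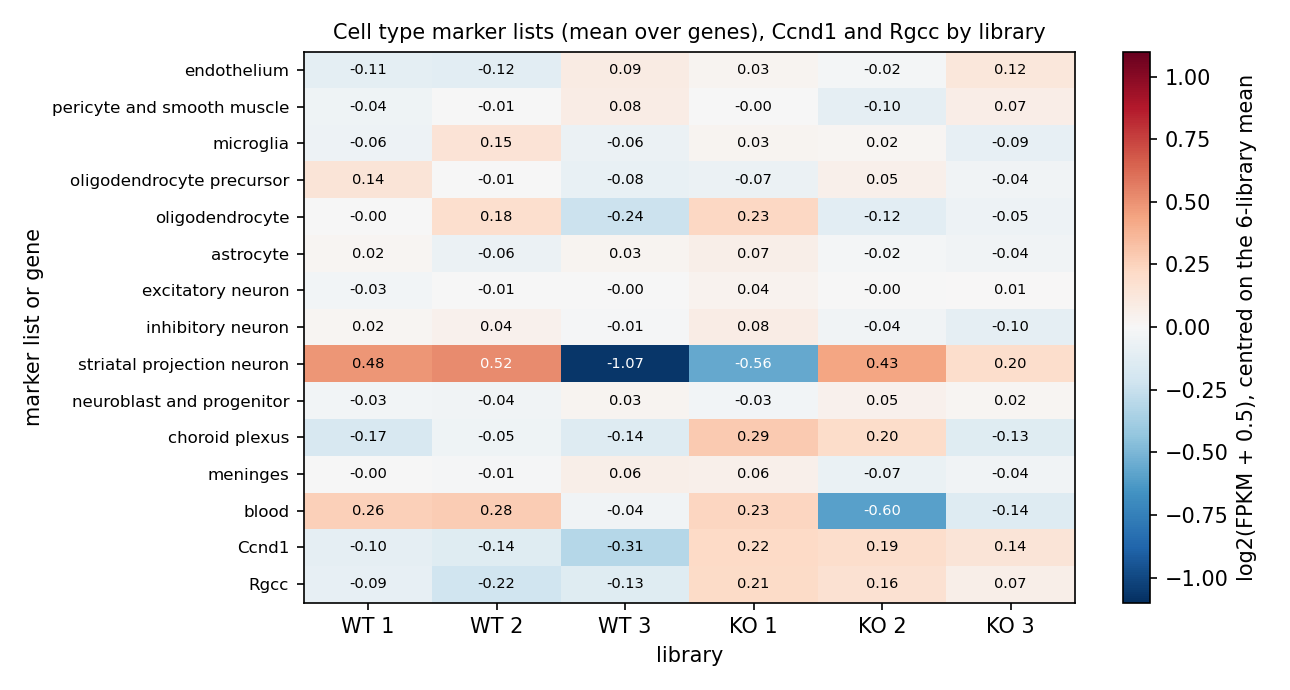
Mean over each marker list (rows) and the single genes Ccnd1 and Rgcc (last rows) of log2(FPKM + 0.5), centred on the mean of the 6 libraries, by library (columns, KO for the libraries labelled Fam69c KO), in blue for lower and red for higher, with the value in each cell. Ccnd1 and Rgcc are below 0 in 3 of 3 WT libraries and above 0 in 3 of 3 KO libraries, and the striatal row is low in WT 3 and KO 1.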

How the data were processed

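Cortex RNA was measured in 3 WT and 3 Fam69c KO libraries. Trizol extraction and a TruSeq kit were used, per the labels' protocols. The authors deposited 1 table of FPKM values, and the submitters' processing notes name Bowtie and mm10. For the counter, its use of strand and the annotation release, nothing is given in the sources used here. FPKM times gene length, divided by 1 constant per library, came out whole to within 0.001 for 100% of values above 0, and these are the recovered reads.

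From the FPKM, log2(FPKM + 0.5) of the 15694 genes with a mean of at least 0.5 was fitted with limma 3.58.1 in R 4.3.3, with a variance trend, two-sided, all 6 libraries, no covariate, Benjamini-Hochberg over all genes, threshold 0.05. On simulated data with 200 of 15694 genes changed, it recovered 82.6% of those changed by 2-fold and 95.6% by 4-fold, with 10.6 false calls per draw. Genes were drawn independently, without shifts shared by a library. The largest difference of a member, 0.37 log2 units, was below 2-fold, so recovery of differences of that size was not measured.

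The members, lists and tests were chosen with earlier results of these data known. Named were all 10 members, genes overlapping them on the other strand with a mean of at least 0.5 FPKM, up to 3 genes of smallest p per group of the G1/S list, and the 3 nearest to Ccnd1 and Rgcc. Ccna1, Ccna2, Cdk2, Cdkn2a, Cdkn2b, Mki67, Pcna, Jun, Fos, Junb, Ccnd3-ps and single cell type markers were named after their values were seen. Deposited positions of 10 of 10 members matched GENCODE M21 (GRCm38, the mm10 assembly), whose transcripts were aligned with Biopython 1.88. Plots used matplotlib 3.10.9. Alternatives changed the pseudocount, filter, scaling or variance model, weighted samples, added a replicate block, used voom on recovered reads, or left libraries out. Every pair of libraries differed by more than sampling noise.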

Additional observations from a re-analysis of the deposited data

How the results depend on the processing

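The differences of Ccnd1, Rgcc, Rb1, Ccnd2, Cdk5 and Cdkn1a kept their sign under all 17 alternatives, from 0.28 to 0.41 for Ccnd1 and from 0.26 to 0.33 for Rgcc, while those of Ccnd3, Cdk4 and Cdkn1b each turned under 1. For Ccnd1, Rgcc and Rb1, whose groups did not overlap, leaving libraries out could not turn the sign. Changes of filter, variance trend, replicate block and median-ratio scaling returned the same differences by construction. Nothing is read from the signs kept there. The count of members higher without overlap was 4 to 6, and leaving libraries out could only keep or raise it. Over all genes, 0 passed under 16 alternatives and 1, Gm47283, without both libraries low in striatal genes. The median of the members ran from 0.0358 to 0.0966 when each library was left out in turn. The median of the G1/S list was 0.0144 with TPM scaling, 0.0094 with voom, -0.0285 with sample weights, -0.029 without both libraries low in striatal genes, and from -0.026 to 0.0185 with each library left out, so it has no stable sign. Genes without overlap numbered 1392, 2516 with no filter, 7406 without both libraries low in striatal genes, and 2359 to 3798 with each library left out, because fewer libraries or more genes entered. The cause of the other moves was not tested.

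With the replicate number as a block, 0 genes passed, the differences were as without it (0.37 for Ccnd1), and 837 genes against 599 had an unadjusted p under 0.05. Deviations of same-numbered libraries correlated across genes at 0.08, 0.01 and 0.21, and WT replicate 1 with replicate 1 labelled knockout at 0.08 lay under WT replicate 2 with it at 0.11, so the numbers were not taken to pair libraries. Depth limits Cdk6 most, with 96 to 203 reads.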
